A study of Sus scrofa with 75 samples.

Results

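Surfactant and alveolar type II genes were followed over 5 pig organs. The members were SFTPA1, SFTPB, SFTPC, SFTPD, SLC34A2, ABCA3, NAPSA and LAMP3 and were found by gene name. Of the 8 names sought, 7 were found among the 35798 genes of the expression table, and LAMP3, which was not matched by name, is not analysed here.

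Alveolar type II cells line the air sacs of the lung and make surfactant, a film of lipid and protein that lowers surface tension and keeps the air sacs open. SFTPB and SFTPC encode the small hydrophobic surfactant proteins that help the lipid film spread. SFTPA1 and SFTPD encode collectins, soluble lectins that bind microbes and take part in surfactant turnover. ABCA3 pumps phospholipid into lamellar bodies, the organelles in which surfactant is stored, NAPSA is an aspartic protease that processes surfactant protein precursors, and SLC34A2 is a sodium-phosphate cotransporter of the apical membrane.

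The series measured heart, kidney, liver, lung and spleen of adult male pigs aged 12 months, in pig groups that the labels name BS and DSE without expanding the names. Each group used here had 4 animals by their titles (BS1 to BS4 and DSE1 to DSE4) and 1 short-read library per animal and organ, which gave 40 rRNA-depleted libraries in TPM, the length-scaled share of a library's transcripts. Each group also had 1 PacBio library per organ, with 119623 to 456783 full-length reads, of which 204718 came from BS lung and 208658 from DSE lung. Another pig group of the series is not analysed here. No treatment is given in the labels, so the design compares organs and pig groups, and each library holds a whole organ sample in which fewer type II cells and less RNA per cell cannot be told apart. The TPM values carry no read depth, so the precision of a low value is unknown.

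On susScr11, SFTPC (ENSSSCG00000009619) lies on chromosome 14 from 6440309 to 6443095 on the plus strand and is given 16 transcripts, 13 of them from the long reads. SFTPB (ENSSSCG00000008229) lies on chromosome 3 from 59101918 to 59112453 on the plus strand, with 5 transcripts. Both collectin genes sit together on chromosome 14. SFTPA1 (ENSSSCG00000010336) runs from 82091178 to 82095393 on the minus strand with 6 transcripts, and SFTPD (ENSSSCG00000010334) from 82051451 to 82067976 on the plus strand with 1 transcript, 23201 bases away. The whole span of SFTPD overlaps MBL1, a mannose-binding lectin gene on the opposite strand, and whether the authors' quantification used strand is not given in the sources used here. MBL1 averaged 0.686 TPM in BS lung and 0.296 TPM in DSE lung in the mean of 4 libraries each. ABCA3 (ENSSSCG00000008051) lies on chromosome 3 from 39689261 to 39732978, SLC34A2 (ENSSSCG00000008758) on chromosome 8 from 19481198 to 19509675, both on the plus strand, and NAPSA (ENSSSCG00000003212) on chromosome 6 from 55221204 to 55230449 on the minus strand.

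SFTPC was by far the most abundant member in lung, with TPM levels of 33105, 53199, 24604 and 14993 in BS1 to BS4, against 20457, 14268, 13899 and 25879 in DSE1 to DSE4. It ranked between 1 and 5 among all genes in each lung library and made up 71.8% to 80.2% of the summed TPM of the 7 members. SFTPB reached 2646, 2796, 1396 and 1425 TPM in BS lungs, against 1513, 899, 1406 and 1603 TPM in DSE lungs. For both hydrophobic proteins BS1 and BS2 lay above all DSE lungs, while BS3 and BS4 lay within the DSE range.

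The collectin SFTPA1 had 5928, 8251, 4077 and 2652 TPM in BS lungs, against 5607, 2963, 3000 and 4739 TPM in DSE lungs. SFTPD was lower, at 408, 524, 167 and 140 TPM in BS lungs, against 204, 101, 137 and 164 TPM in DSE lungs. The pig groups overlapped for both collectins, again with BS1 and BS2 at the top. As a share of the members' summed TPM, SFTPA1 was the 1 member without overlap between the groups, at 12.4% to 13.7% in BS lungs and 14.3% to 19.7% in DSE lungs. The shares divide the same sum, most of it SFTPC, so they depend on each other. No such share exists over all genes, so the separation has no background and is description only.

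Of the genes of lamellar bodies and precursor processing, NAPSA had 538, 786, 414 and 260 TPM in BS lungs, against 241, 167, 238 and 262 TPM in DSE lungs. ABCA3 had 73.0, 95.9, 49.6 and 26.6 TPM in BS lungs, against 33.7, 25.3, 26.8 and 31.3 TPM in DSE lungs. For both genes BS1, BS2 and BS3 exceeded all DSE lungs, and BS4 fell among them. SLC34A2, the phosphate transporter, had 519, 666, 370 and 254 TPM in BS lungs, against 427, 235, 354 and 410 TPM in DSE lungs, with BS3 and BS4 inside the DSE range.

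**Figure D1:**
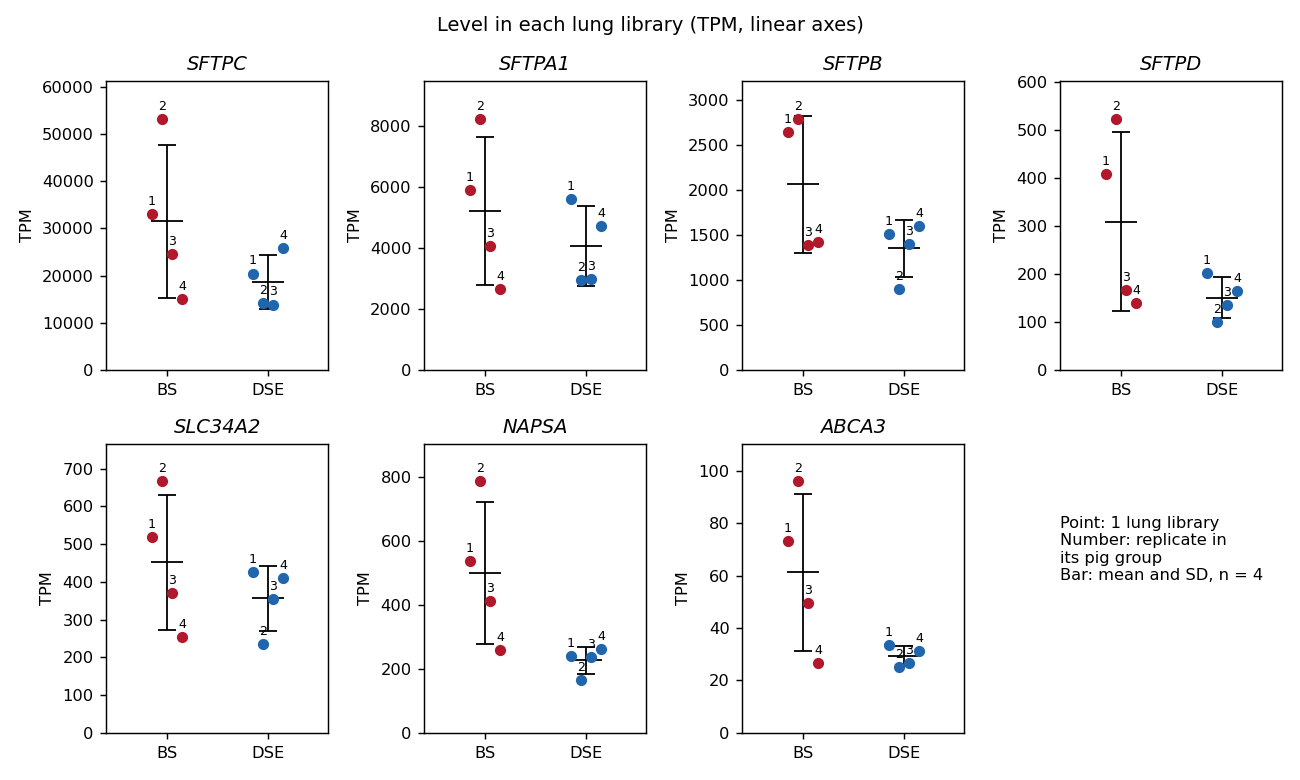
TPM of each member in the 8 lung libraries (linear vertical axes, BS left and DSE right). Points are libraries numbered by replicate, and bars give the mean and SD of 4. BS2 is the highest library for all 7 members and BS1 the second highest.

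The members moved together between lungs. BS2 was highest and BS1 second for all 7 genes, and BS4, DSE2 and DSE3 were among the lowest 4 lungs for all 7. The share of all genes with this order was not counted. Their summed level was 1.98% to 6.63% of the library in BS lungs and 1.87% to 3.31% in DSE lungs. The coefficient of variation across 4 lungs ranged from 36.8% for SFTPB to 60.3% for SFTPD in BS pigs, and from 13.3% for ABCA3 to 32.2% for SFTPA1 in DSE pigs.

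All 7 measured members were enriched in lung, where enriched means at least 4-fold above each of the other 4 organs with an adjusted p under 0.05 (limma on log2(TPM + 1), Benjamini-Hochberg over all genes). Among all 16905 genes tested, 435 met the rule, or 2.57%. The differences below are on the log2(TPM + 1) scale, which understates the change of genes near 0 elsewhere. SFTPC had the largest difference of all genes tested, 13.90 ± 0.20 (SE) above liver, its next organ, with a limma adjusted p of 2.90e-34. SFTPA1 ranked 2 at 11.27 ± 0.15 above liver, and SFTPB ranked 3 at 10.59 ± 0.11 above spleen. SLC34A2 followed at 8.27 ± 0.12 above spleen (rank 9), SFTPD at 6.33 ± 0.21 above liver (rank 18) and NAPSA at 4.64 ± 0.16 above spleen (rank 44). ABCA3 was the least restricted, at 2.40 ± 0.16 above liver (rank 295), a 5.27-fold difference. With median-ratio scaling of the libraries the ABCA3 difference was 1.27 on the log2 scale, under the 4-fold rule, so ABCA3 was no longer enriched and 6 members were (limma adjusted p for ABCA3 = 1.73e-07).

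**Figure D2:**
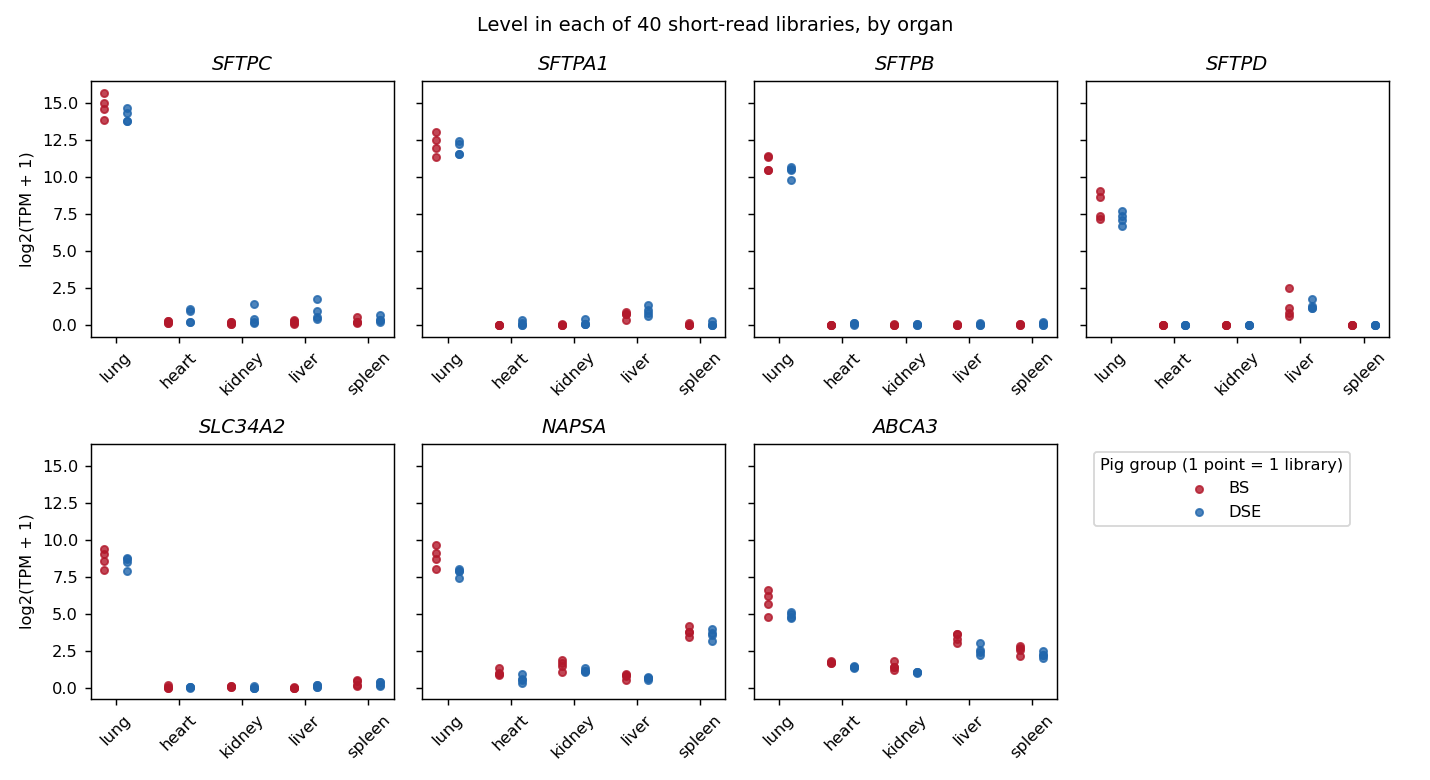
Level of each member as log2(TPM + 1) in all 40 short-read libraries, by organ, with BS points left of DSE points. Lung lies above the other organs for all 7 members. ABCA3 keeps mean levels of 1.42 to 7.29 TPM in the other organs, and NAPSA reaches 12.2 TPM in spleen.

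Outside lung the members fell into those near 0 and those with a measurable level. SFTPB averaged at most 0.0508 TPM in any other organ (spleen) with no pair of neighbours among those organs passing the limma test. SFTPC averaged 0.595 TPM in liver, 0.373 in heart, 0.338 in kidney and 0.281 in spleen, and no pair of neighbours in that order passed the limma test. SLC34A2 averaged 0.250 TPM in spleen and less than that in liver, heart and kidney, with no pair of neighbours passing. The collectins shared a second organ. SFTPA1 averaged 0.795 TPM in liver against 0.0717 TPM in kidney (limma adjusted p = 5.37e-05), and SFTPD averaged 1.68 TPM in liver against 0.00703 TPM in kidney (limma adjusted p = 9.50e-07). MBL1, which overlaps SFTPD, averaged 158 ± 60.7 TPM in liver (SD, n = 8), and its part in the SFTPD value there was not tested.

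ABCA3 had a graded profile. Behind lung at 45.3 TPM came liver at 7.29 TPM, spleen at 4.36 TPM, heart at 1.98 TPM and kidney at 1.42 TPM. Each step passed the limma test down to heart, while heart against kidney did not pass (adjusted p = 0.0757). NAPSA averaged 363 TPM in lung, 12.2 TPM in spleen, 1.59 TPM in kidney, 0.802 TPM in heart and 0.658 TPM in liver. All of these steps passed except the last, between heart and liver (limma adjusted p = 0.625).

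The 2 pig groups were then compared within lung, and 4 members were higher in BS than in DSE while 0 were lower, also by an unadjusted limma p under 0.05. In the same comparison 18.5% of the 15025 genes tested were higher in BS and 37% were lower. NAPSA averaged 499 ± 223 TPM in BS lungs and 227 ± 41.4 TPM in DSE lungs (SD, n = 4 each), a log2 difference of 1.04 ± 0.22 (SE) with a limma adjusted p of 0.000228. It was the 1 member called at 2-fold or more, as were 2.85% of genes in that direction. ABCA3 averaged 61.3 ± 29.9 TPM in BS lungs and 29.3 ± 3.90 TPM in DSE lungs, a log2 difference of 0.90 ± 0.22 (limma adjusted p = 0.00114). SFTPD differed by 0.86 ± 0.29 (limma adjusted p = 0.0146) and SFTPB by 0.57 ± 0.16 (limma adjusted p = 0.00295).

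SFTPC, SFTPA1 and SLC34A2 did not pass. SFTPC averaged 31475 ± 16263 TPM in BS lungs and 18626 ± 5695 TPM in DSE lungs, a log2 difference of 0.66 ± 0.29 with a limma adjusted p of 0.0525. SFTPA1 differed by 0.29 ± 0.21 (limma adjusted p = 0.248) and SLC34A2 by 0.29 ± 0.17 (limma adjusted p = 0.154). The median log2 difference was 0.66 over the 7 members and −0.21 over all genes tested. No member had all 4 BS lungs above all 4 DSE lungs, a separation that 14.2% of genes showed.

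These calls rest on a spread estimated over all organs, in which most members lie near 0 outside lung. With the lung libraries alone, NAPSA was the 1 member still called, and the limma adjusted p was 0.0586 for ABCA3, 0.131 for SFTPD and 0.137 for SFTPB. Without BS4 all 7 members were called higher in BS, and SFTPD was no longer called without BS1 (limma adjusted p = 0.0960), BS2 (0.142) or DSE2 (0.0838).

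Markers of other lung cells also differed between libraries. The 9 measured of 10 alveolar type I markers summed to 3247 to 4179 TPM in BS lungs and 3841 to 4914 TPM in DSE lungs, and all 7 ciliated cell markers to 189 to 421 TPM in BS lungs and 323 to 645 TPM in DSE lungs. The 5 measured of 7 airway secretory markers summed to 10806 to 50403 TPM in BS lungs and 9145 to 21480 TPM in DSE lungs. Most of that sum was SCGB1A1, which averaged 32467 TPM in BS lungs and 15667 TPM in DSE lungs without passing (limma adjusted p = 0.177). All 5 leukocyte markers summed to 256 to 411 TPM in BS lungs and 344 to 495 TPM in DSE lungs. No marker of these lists was at 0 in all lungs. In BS against DSE lung, 2 type I markers were higher and 4 lower, 1 ciliated marker was higher and 5 lower, and 1 airway secretory marker was higher and 3 lower. Of 6 endothelial markers 1 was higher and 1 lower, of 6 mature dendritic cell markers 3 were higher and 1 lower, and of 5 leukocyte markers 0 were higher and 1 lower. Beside these counts, 18.5% of all genes tested were higher and 37% lower in BS lung. BS2, the highest lung for the members, was the lowest of the 8 for the type I, ciliated and leukocyte sums. From the highest down, BS2 ranked 2 for the sum of genes of surfactant clearance by macrophages and 3 for the endothelial sum. It ranked 6 for the mature dendritic cell sum and 7 for the airway secretory sum. For lists described below, BS2 ranked 1 for surfactant lipid synthesis, 2 for relatives of the members and 3 for surfactant protein processing and secretion. BS1 ranked 2, 1 and 1 for these sums, so high sums in BS1 and BS2 were not confined to the members. BS2 ranked 6 for proximal tubule markers, 7 for the transcription factors and 8 for the other collectins. The part of cell makeup in the pig group differences was not tested.

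**Figure D3:**
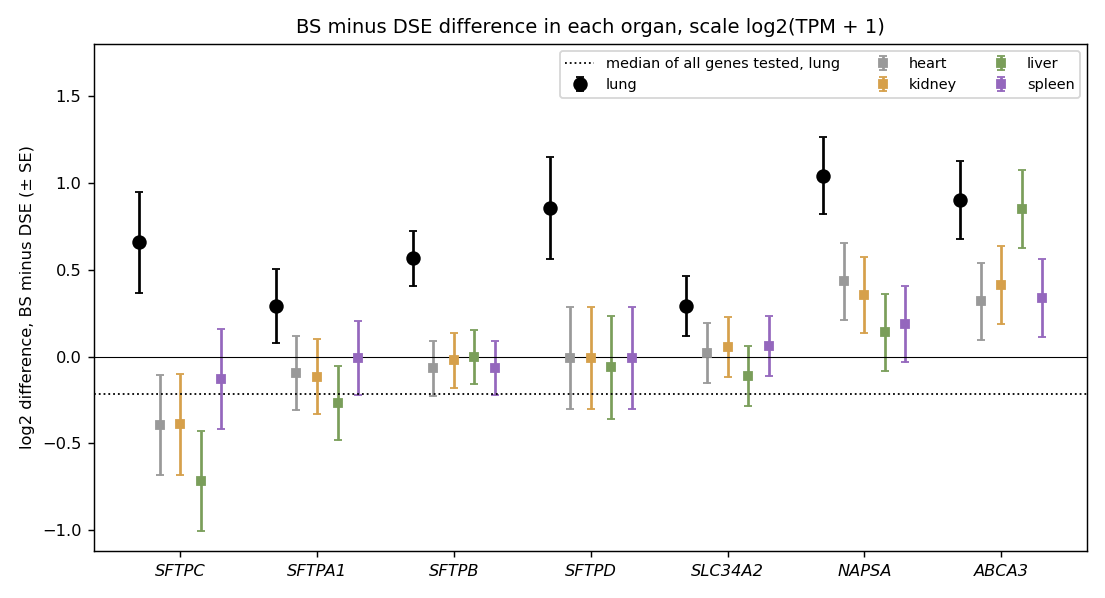
BS minus DSE difference of each member in 5 organs on the log2(TPM + 1) scale, with bars of 1 SE. The dotted line is the median of all genes in lung, −0.21. All 7 lung differences are above 0, from 0.29 to 1.04, and ABCA3 in liver reaches 0.85.

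In the other organs, ABCA3 in liver was the 1 call among the members that reached 1 TPM there. Of all genes, 33.2% differed in heart, 45.4% in kidney and 35.8% in spleen, in either direction. Only ABCA3 and NAPSA reached 1 TPM in these organs and were tested there. They gave 0 calls, whether by the limma adjusted p or by an unadjusted p under 0.05. With so few members tested, that count cannot be set against the shares of all genes. ABCA3 had 11.4, 7.12, 11.5 and 8.62 TPM in BS livers, against 4.35, 7.13, 3.55 and 4.78 TPM in DSE livers, a log2 difference of 0.85 ± 0.22 (limma adjusted p = 0.00346), in a comparison where 23.5% of 12147 genes were higher in BS. BS2 and DSE2 lay close together and the other livers were apart. ABCA3 also had 2.21, 2.31, 2.15 and 2.54 TPM in BS hearts, against 1.72, 1.53, 1.66 and 1.69 TPM in DSE hearts. In kidney it had 1.68, 2.47, 1.33 and 1.65 TPM in BS pigs, against 0.966, 1.095, 1.112 and 1.097 TPM in DSE pigs. The groups did not overlap in heart or kidney, as for 23.1% and 19.8% of genes in those organs, but the limma adjusted p was 0.276 in heart and 0.128 in kidney.

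In liver, 2 members with low levels had all BS libraries below all DSE libraries, SFTPC and SLC34A2. SFTPC had 0.0633, 0.289, 0.0859 and 0.202 TPM in BS livers, against 0.485, 0.923, 0.362 and 2.35 TPM in DSE livers. SFTPC entered the test only through its DSE mean of 1.03 TPM, against 0.160 TPM in BS, with only DSE4 above 1 TPM. The limma adjusted p of 0.0505 for SFTPC carries that limit. SLC34A2, which was too low in liver to be tested, had 0.00963, 0, 0 and 0.0254 TPM in BS livers, against 0.0369, 0.169, 0.125 and 0.0297 TPM in DSE livers. Of the 12147 genes tested in liver, 11.5% had all BS libraries below all DSE libraries. SLC34A2 is not among those genes, so that share is no background for it. The interaction of pig group with organ passed for 8.4% of all genes and for 0 of the members by limma's F test, and 3 members had an unadjusted p under 0.05. The smallest adjusted p among them was 0.130, for SFTPC (limma F test). On the log2(TPM + 1) scale, members near 0 outside lung can differ little there, as SFTPB did at −0.07 in heart and −0.004 in liver. For such members the test cannot tell whether the pig group difference varies by organ.

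Transcript choice within lung was compared as the share of a gene's TPM given to each transcript. Of the member transcripts, 2 differed between pig groups, in a test that 12.3% of 22694 transcripts passed. PB.16627.7, a long-read SFTPC transcript of 936 nt and 6 exons, took 49.7%, 51.4%, 44.8% and 41.8% of SFTPC in BS lungs, against 28.5%, 27.9%, 28.2% and 30.2% in DSE lungs. The groups were apart, and the limma adjusted p was 0.0135. Among full-length reads of SFTPC, PB.16627.7 had 8 of 31 in BS lung (25.8%, 95% exact interval 11.9 to 44.6%). In DSE lung it had 18 of 99 (18.2%, 11.1 to 27.2%). These intervals overlap, so the full-length reads do not show the gap seen in TPM. The annotated transcript ENSSSCT00000010544 (538 nt) averaged 40.04 ± 4.06% in BS lungs and 48.0 ± 1.71% in DSE lungs (SD, n = 4 each), which did not pass (limma adjusted p = 0.165).

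The other call was in ABCA3. ENSSSCT00000008823, a transcript of 31 exons, took 26.03%, 37.6%, 19.5% and 17.7% of ABCA3 in BS lungs, against 6.85%, 6.25%, 14.9% and 6.71% in DSE lungs (limma adjusted p = 0.0344). All BS lungs were above all DSE lungs, but the call was lost when any of BS1, BS2, BS3, DSE1, DSE2 or DSE4 was left out, with limma adjusted p-values of 0.0597 to 0.0933. PB.4361.2, the long-read ABCA3 transcript of 35 exons that starts upstream of the annotated ones, averaged 45.4 ± 18.7% in BS lungs and 73.7 ± 4.09% in DSE lungs without passing (limma adjusted p = 0.0701).

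**Figure D4:**
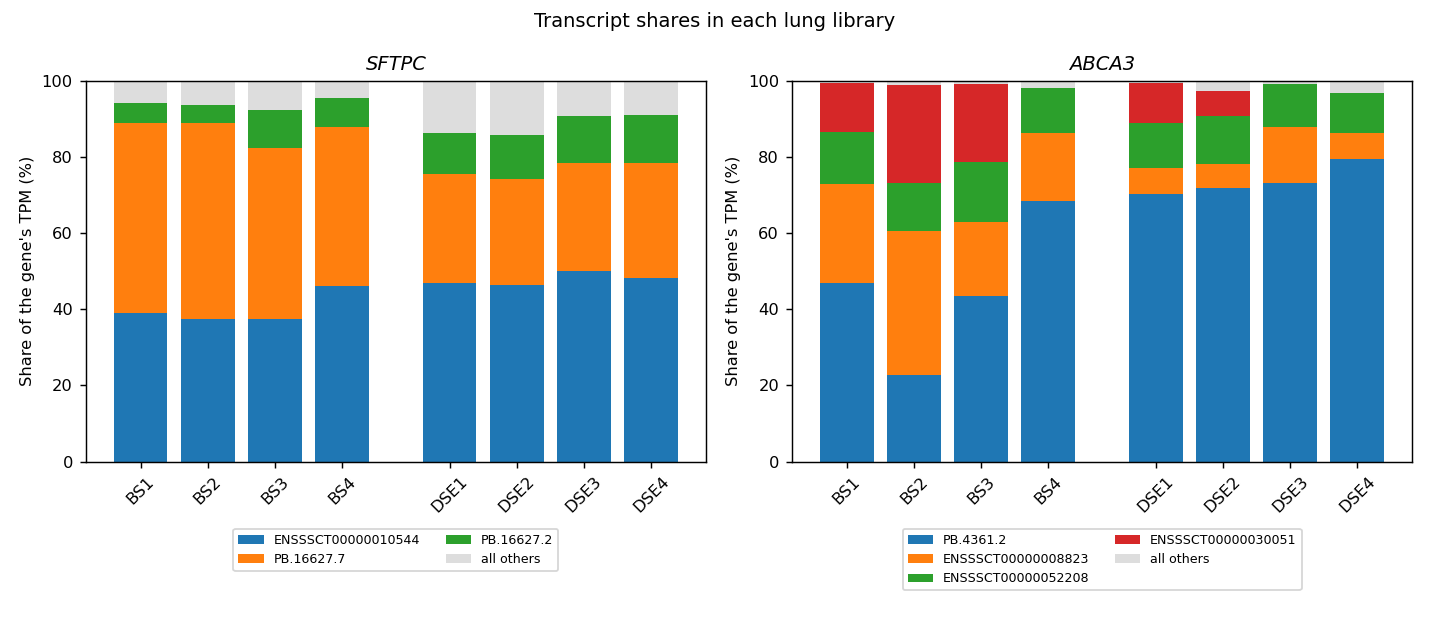
Share of the TPM of SFTPC (left) and ABCA3 (right) given to each transcript, in percent, in BS and DSE lung libraries. Transcripts with a mean share under 5% are pooled in grey. The share of PB.16627.7 in SFTPC is 41.8% to 51.4% in BS lungs and 27.9% to 30.2% in DSE lungs.

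Between organs, usage could be tested for members that reached 5 TPM elsewhere. NAPSA differed between lung and spleen: its main transcript ENSSSCT00000040636 averaged 93.4 ± 1.26% of the gene in lung and 75.6 ± 8.47% in spleen (SD, n = 8 each, limma adjusted p = 6.06e-06), where 8.42% of 21072 transcripts passed. The 4 ABCA3 transcripts tested between lung and liver did not pass (0 at an unadjusted limma p under 0.05), where 24.1% of 15942 transcripts did. Among its annotated transcripts, most SFTPA1 TPM was given to ENSSSCT00000011314, with 95.7 ± 0.373% in BS lungs and 95.6 ± 0.581% in DSE lungs. The transcripts with most of its full-length reads, given below, have no entry in the annotation and so no TPM share.

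Full-length reads gave another view of the same genes, with 1 library per pig group and organ. SLC34A2 had 1744 reads in BS lung and 1316 in DSE lung, the most of any member. SFTPA1 had 332 reads in BS lung and 919 in DSE lung. SFTPB had 136 reads in BS lung and 178 in DSE lung. SFTPC had 31 reads in BS lung and 99 in DSE lung, and NAPSA 38 reads in BS lung and 42 in DSE lung. ABCA3 had 0 reads in all 10 libraries, which allows up to 0.00147% of BS lung reads and 0.00144% of DSE lung reads at 3 reads, for the reads assigned to it. For SFTPD 0 full-length transcripts are listed, so no read could be assigned to it and it has no full-length value. In all, 88.03% of BS lung reads and 87.2% of DSE lung reads were assigned to a gene.

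Outside lung the 5 detected members had 2 reads in all, 1 of SLC34A2 and 1 of NAPSA, both in BS spleen. Against the libraries at 0, with 3 reads per library as the floor, the share of SFTPA1 was at least 64.7-fold higher in BS lung and at least 212-fold higher in DSE lung. The bounds for SFTPC were 6.04-fold in BS lung and 22.8-fold in DSE lung. The ratio of BS lung to BS spleen was 1019 for SLC34A2 (95% exact counting interval 183 to 40274) and 22.2 for NAPSA (3.75 to 900). All 5 members tested were called higher in lung by edgeR's quasi-likelihood test with Benjamini-Hochberg adjustment, as were 1.48% of 4110 genes, with adjusted p-values from 6.77e-41 for SLC34A2 to 5.17e-06 for NAPSA. DESeq2 called 0 of these members (3 at an unadjusted p under 0.05), and without the DSE lung library edgeR lost SFTPC (adjusted p = 0.127) and NAPSA (adjusted p = 0.198).

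The order of the members differed between the assays. SFTPC held 3.15% of TPM and 0.0151% of full-length reads in BS lung, and 1.86% of TPM and 0.0474% of full-length reads in DSE lung, so its full-length share was 0.00481 of its TPM share in BS lung and 0.0255 in DSE lung. For SLC34A2 the full-length share was 18.8 times the TPM share in BS lung and 17.7 times in DSE lung. The TPM-weighted transcript length was 761 nt in BS and 714 nt in DSE for SFTPC, and 3813 nt in BS and 3816 nt in DSE for SLC34A2. With mitochondrial genes left out, genes under 1000 nt held 41.4% of the remaining TPM and 4.55% of the remaining gene-assigned full-length reads in BS lung. In DSE lung they held 38.7% of that TPM and 7.23% of those reads. The shares of SFTPC and SLC34A2 are of all TPM and all full-length reads, so their denominators differ from those of the length classes. SFTPC lay below the ratio of its length class, 0.110 in BS lung and 0.187 in DSE lung, and SLC34A2 above that of genes of 3000 to 4000 nt, 3.91 in BS lung and 2.92 in DSE lung. Counting intervals cover counting error only.

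**Figure D5:**
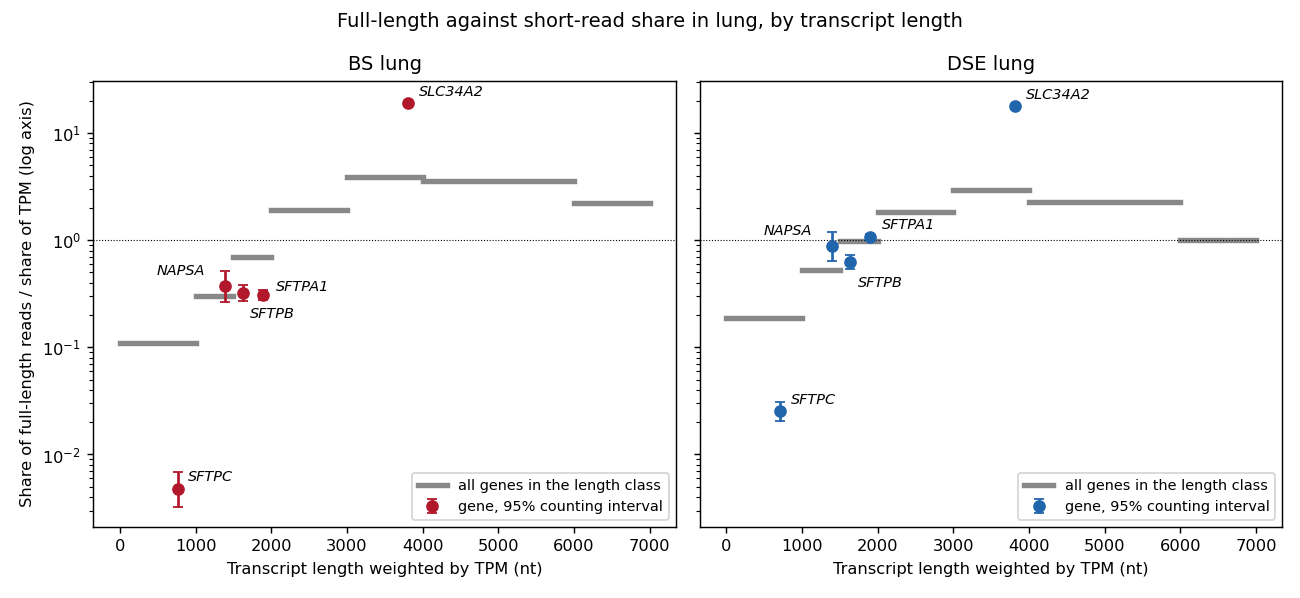
Share of full-length reads divided by share of TPM in lung (log axis) against TPM-weighted transcript length in nt, for BS lung (left) and DSE lung (right). Grey bars are all genes of a length class except mitochondrial genes, over gene-assigned reads, the longest class being open-ended. Points are members, over all TPM and all full-length reads, with 95% exact counting intervals. SFTPC lies at 0.00481 in BS and 0.0255 in DSE, and SLC34A2 at 18.8 in BS and 17.7 in DSE.

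The full-length reads of SFTPA1 came mostly from PB.17510.2 and PB.17510.4, which are listed without an entry in the assembled annotation. PB.17510.2 had 101 of 332 reads in BS lung (30.4%, 95% exact interval 25.5 to 35.7%) and 852 of 919 in DSE lung (92.7%, 90.8 to 94.3%). PB.17510.4 had 219 reads in BS lung (66.0%, 60.6 to 71.0%) and 16 in DSE lung (1.74%, 0.998 to 2.81%). With 1 library per pig group these values compare libraries, not pig groups, and the labels do not tie a long-read library to an animal. For SLC34A2, PB.11004.1 held 1740 of 1744 reads in BS lung and 1315 of 1316 in DSE lung. It too has no entry in the annotation and so no TPM share. The same holds for PB.8361.1 of NAPSA, with 34 of 38 reads in BS lung and 39 of 42 in DSE lung. Most SFTPB reads in both lungs also fell on transcripts without an entry.

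The genes that make surfactant lipid were mostly not restricted to lung. Of 12 tested, 1 was enriched in lung, SCD, a fatty acid desaturase, and it fell short of 4-fold with median-ratio scaling (log2 difference 1.47, against 2.66 as deposited). Between pig groups in lung, 4 were higher and 2 lower in BS, where 18.5% of all genes were higher and 37% lower. Their median log2 difference was −0.03, against −0.21 for all genes. FASN, the fatty acid synthase, averaged 116 TPM in BS lungs and 43.3 TPM in DSE lungs (log2 difference 1.41 ± 0.34). LPCAT1, which remodels phosphatidylcholine, averaged 160 TPM in BS lungs and 83.2 TPM in DSE lungs, and SREBF1, a regulator of lipid synthesis, 28.5 TPM in BS lungs and 13.5 TPM in DSE lungs. Enzymes of phosphatidylcholine synthesis differed in both directions. CHKA, a choline kinase, averaged 38.7 TPM in BS lungs and 23.2 TPM in DSE lungs (log2 difference 0.77 ± 0.24, limma adjusted p = 0.00847). PCYT1A and CEPT1 were lower in BS, at 11.5 and 42.7 TPM in BS lungs, against 18.5 and 69.3 TPM in DSE lungs.

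Of 8 genes of surfactant protein processing and secretion, 0 were enriched in lung, 3 were higher in BS and 2 lower. Their median log2 difference was 0.29. Beside the counts of each list here, 18.5% of all genes were higher and 37% lower in BS lung. CTSH, a protease that processes surfactant proteins, averaged 482 TPM in BS lungs and 299 TPM in DSE lungs (log2 difference 0.65 ± 0.25). NEDD4L, a ubiquitin ligase, was lower at 15.1 TPM in BS lungs, against 26.9 TPM in DSE lungs. Of 8 transcription factors, NKX2-1 and KLF5 were enriched in lung, and 2 were higher and 2 lower in BS (median 0.12). NKX2-1, the lung lineage factor, averaged 88.5 TPM in BS lungs and 66.4 TPM in DSE lungs, while FOXA1 averaged 7.64 TPM in BS lungs and 13.1 TPM in DSE lungs. Of 7 genes of surfactant clearance by macrophages, CSF2 and the scavenger receptor MARCO were enriched in lung, 1 gene was higher in BS (PPARG) and 1 lower (ABCG1), with a median of −0.15.

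Relatives of the members did not meet the 4-fold rule for lung. Of the 5 other collectins tested 0 were enriched, and 1 was highest in lung, COLEC12, which averaged 45.2 TPM in lung and 11.8 TPM in spleen, its next organ (log2 difference 1.84, limma adjusted p = 4.82e-09). MBL1 and MBL2 averaged 158 and 217 TPM in liver. Of 13 relatives of the transporters, proteases and LAMP family, 0 were enriched in lung and 3 were highest there (ABCA7, LAMP2 and CTSD). These 3 did not pass against every other organ (limma adjusted p = 0.127 for ABCA7, 0.637 for LAMP2 and 0.990 for CTSD). Of the 9 tested between pig groups 3 were higher and 2 lower in BS lung, against 18.5% higher and 37% lower over all genes. SLC34A1, the renal phosphate cotransporter, averaged 890 TPM in kidney, where the proximal tubule markers LRP2 and CUBN averaged 395 and 163 TPM, and ABCA1, the cholesterol exporter, was lower in BS lungs at 12.5 TPM, against 31.6 TPM in DSE lungs. CTSD, a lysosomal aspartic protease related to NAPSA, averaged 1658 TPM in BS lungs and 388 TPM in DSE lungs (log2 difference 2.09 ± 0.25).

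Genes with a symbol averaging at least 10 TPM in lung were compared with the members' mean profile over the 40 libraries. By root mean square difference on the centred log2(TPM + 1) scale, the 5 nearest of these, members left out, were TFF3 (0.58), AGER (0.59), CLDN18 (0.64), SCGB3A2 (0.69) and AQP5 (0.80). Among the members themselves the distance ran from 0.29 for SLC34A2 to 2.28 for ABCA3. In lung these neighbours did not share a pig group direction. AQP5, a water channel of alveolar type I cells, averaged 253 TPM in BS lungs and 149 TPM in DSE lungs (limma adjusted p = 0.000315), whereas CLDN18, a tight junction protein, averaged 184 TPM in BS lungs and 381 TPM in DSE lungs (limma adjusted p = 1.16e-09).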

How the data were processed

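Per the submitters' processing notes, the reads were handled with STAR 2.7.10a, Salmon 1.10.1 and rtracklayer 1.58.0 on susScr11; their roles are not given in the sources used here. The authors deposited gene and transcript TPM and full-length read counts per long-read transcript. 20 gene, 20 transcript and 5 full-length columns that could not be mapped to labels were left out. Full-length counts were summed per gene by transcript or by long-read locus (85.4% to 90.5% of reads assigned). Genes that averaged 1 TPM or more in a compared group were tested with limma 3.58.1 (R 4.3.3) on log2(TPM + 1), 1 mean per pig group and organ, and full-length counts with edgeR 4.0.16 (pig group as a term; DESeq2 1.42.0 as an alternative). Lung calls used the largest of the 4 p-values. Usage was a log2 ratio with a pseudocount of 0.5 TPM, for genes at 5 TPM and transcripts at 5% or more. The methods were tested on simulated data. Organs of 1 animal were taken as paired by title; their deviations correlated at medians of −0.03 to 0.18, against −0.06 to −0.02 between animals, and an animal block changed no lung call of a member. The labels do not say how animals were sampled, so p-values measure the spread between these samples. Members and gene lists were chosen with earlier results of these data known. From each list the text names at most its first 3 measured genes and further genes that passed the BS minus DSE test, and, chosen after their values were seen, genes enriched or highest in lung or high in another organ. Promoter sequences were not analysed here.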

Additional observations from a re-analysis of the deposited data

Results flagged for a closer look

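Of 30 groups of 4 libraries in which a member averaged at least 1 TPM, 2 held a library far from the other 3, where chance flags about 1 group in 20. SFTPD reached 4.70 TPM in the liver of BS3, against 1.19, 0.784 and 0.517 TPM in the livers of BS1, BS2 and BS4, a gap of 0.840 of the group's range. The second is ABCA3 in DSE kidney, where DSE1 was lowest at 0.966 TPM and the other 3 libraries lay between 1.09 and 1.11 TPM, a gap of 0.882 of the range.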

How the results depend on the processing

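No result reversed. Of the 7 members enriched in lung, ABCA3 lost the call with median-ratio scaling (log2 difference 1.27, under the 4-fold rule), and all 7 were enriched under the other alternatives tried. Genes enriched in lung numbered 735 with a pseudocount of 0.1 TPM, 258 with median-ratio scaling and 1259 at 2-fold, against 435. Members differing between BS and DSE lung, 4 in the main comparison, numbered 2 with a pseudocount of 0.1 TPM, 1 with lung libraries only and 3 to 7 with 1 animal left out. Median-ratio scaling moved the median lung difference of all genes to −0.02, against −0.21 as deposited, and added SFTPC (limma adjusted p = 0.0262) and SLC34A2 (0.0263). In the other organs the count of 1 became 4 with a pseudocount of 0.1 TPM, 2 with median-ratio scaling and 1 to 2 with 1 animal left out. By full-length reads, DESeq2 called 0 members (3 at an unadjusted p under 0.05) and 15 genes, against 5 and 61 by edgeR, 22 genes were called without a pig group term, and leaving out a lung library gave 3 to 5 members and 30 to 31 genes. Member transcripts differing in usage between BS and DSE lung, 2 in all, numbered 1 to 5 with 1 animal left out, and transcripts differing between lung and another organ 3 at a minimum of 1 TPM. The animal as a replicate block gave 436 lung-enriched genes. Numbers shared by BS and DSE do not pair the animals (correlations of −0.23 to −0.04 in lung), and that replicate block gave 4 members in lung and 0 transcripts (7 at an unadjusted limma p under 0.05). Of 980 repeats for single genes and transcripts, 868 kept their side of the threshold, 105 lost and 7 gained the call. The causes were not tested. Each pig group has 4 animals and each long-read group 1 library, and low TPM values have unknown depth.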

Other observations

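The annotation gives MCCC1, a mitochondrial carboxylase subunit, a transcript (ENSSSCT00000022300, 22 exons) with 4 exons and 772 bases inside the interval that the RefSeq gene table gives LAMP3, chromosome 13 from 121081717 to 121117660. That transcript averaged 86.6 ± 54.4 TPM in BS lung and 77.0 ± 13.1 TPM in DSE lung (SD, n = 4 each), 4.39 TPM in BS spleen and 4.81 TPM in DSE spleen, and at most 0.245 TPM in the other organs. The other MCCC1 transcripts together averaged 12.9 TPM in BS lung and 27.3 TPM in DSE lung, and were higher in kidney, at 63.6 TPM in BS and 100.3 TPM in DSE. The TPM of this transcript cannot be divided between the genes here, and it was not counted as a value of LAMP3.

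The long-read SFTPC transcript PB.16627.8 (815 nt) was singled out after its values were seen. It took 5.22% of SFTPC in DSE1 lung and 5.64% in DSE2 lung, against at most 0.016% in BS lungs, while DSE3 and DSE4 were at 0.003% and 0.002%. Among full-length reads it had 0 of 31 in BS lung and 27 of 99 in DSE lung.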
